A study of Mus musculus with 2 samples.

Results

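The CC chemokines followed here are 8 genes for small secreted proteins, Ccl2, Ccl3, Ccl4, Ccl5, Ccl6, Ccl8, Ccl9 and Ccl12. They were chosen by symbol and make up 8 of the 32285 genes counted, and each was present in the tables of all 8 mice. CD45+ cells were sorted from the brains of 4 control mice (Cre-negative Arpc4 fl/fl) and 4 Arpc4dCx3cr1 mice (Tg(Cx3cr1-Cre) Arpc4 fl/fl), all 12 weeks old, and the 3′ ends of their transcripts were sequenced. Every mouse received its own oligonucleotide tag, and the cells of all mice went into 1 pooled library. Both genotypes carry the floxed Arpc4 alleles, and the controls carry no Cre. The Cx3cr1 promoter is active in brain myeloid cells other than microglia too, and the paper describes the deletion as covering brain myeloid populations, microglia among them. Deletion was not measured here in any class, and a change may arise at any age since the onset of Cre.

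Molecules were counted by their unique molecular identifiers (UMIs), so that copies of the same captured transcript count once. The control mice held 5251527, 11148525, 10695670 and 10419683 UMIs on genes, and the Arpc4dCx3cr1 mice 12797266, 10768644, 12878691 and 12528757. Control mouse 1 was the shallowest. The median mitochondrial share of a mouse's cells was 0.520 to 0.583% in controls and 0.951 to 1.14% in Arpc4dCx3cr1 mice, without overlap. Its part in the changes below was not tested. Of 19864 cells, 19863 passed the filters (9443 control and 10420 Arpc4dCx3cr1), and 0 barcodes were shared between mice. The 8 members together accounted for 150987 of 86484731 UMIs, or 0.175%. The study left out 1 female Arpc4dCx3cr1 mouse that the labels do not name. Xist, a transcript of female cells, reached 1383 CPM (UMIs scaled to the usual common total by the UMIs of the sum) in the microglia-like cells of Arpc4dCx3cr1 mouse 1 and 3.55 to 13.2 CPM in the other 7 mice. All 8 mice were kept, and the microglia-like counts of called genes are also given without that mouse.

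CC chemokines carry neighbouring cysteines near their amino terminus, bind G protein-coupled receptors and direct the movement of leukocytes along concentration gradients. In the brain, microglia and border macrophages release them during injury, infection and ageing, and several are induced through NF-kB or interferon signalling. Ligands of CCR2 recruit monocytes, ligands of CCR1 act on T cells, monocytes and microglia themselves, and the rodent genes Ccl6 and Ccl9 are expressed by myeloid cells without any inflammatory stimulus.

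Clusters were assigned to classes by marker genes, with every CC chemokine left out of the clustering. The microglia-like class held 17036 cells (7798 control and 9238 Arpc4dCx3cr1), the class like CNS-associated macrophages (CAM-like) 412, the monocyte-like class 347 and the T cell-like class 309. Control microglia-like cells lay mostly in clusters 1, 2 and 3 (on average 36.7, 31.8 and 26.6% of a mouse's cells), and Arpc4dCx3cr1 cells in clusters 0, 5, 4 and 6 (33.5, 18.7, 17.6 and 14.1%). Cluster 5 came mainly from Arpc4dCx3cr1 mouse 1, where it made up 73.0% of the class. Its leading gene was Xist, which was high in that mouse alone. Clusters without a name, of low depth, held 10.6% of control and 4.91% of Arpc4dCx3cr1 cells. The summed level of the 12 microglia markers was 26507 to 26878 CPM in the control microglia-like sums and 11194 to 15882 CPM in the Arpc4dCx3cr1 ones, with no marker at 0. Of these markers, 11 of 12 fell, so the class name rests on markers that themselves differ between the genotypes. No microglia-like cluster had a microglia marker among its leading 10 genes. Clusters 4 and 14 each had 1 marker of brain tissue cells there (Ttr and Flt1), and results without these clusters are given below. Of the 12 microglia markers, naming asked for 3 above the lymphoid and granulocyte cells. Clusters 6 and 5 had the fewest, with 4 and 7, and cluster 6 was led by the hemoglobin genes Hbb-bs and Hba-a1.

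Arpc4, the targeted gene, was read as a check of the labels. In microglia-like cells it stood at 242, 224, 233 and 232 CPM in control mice 1 to 4 and at 146, 145, 136 and 132 CPM in the Arpc4dCx3cr1 mice. Every Arpc4dCx3cr1 mouse was below every control, and the log2 fold change was −0.63 (SE 0.05, adjusted p 5.65e-06). A 3′ count can still be made from a transcript with an internal deletion, so these values do not measure the deletion. In CAM-like cells the Arpc4 log2 change was 0.27 (adjusted p 0.694), in monocyte-like cells −0.02 (adjusted p 0.994) and in T cell-like cells −0.29 (adjusted p 0.5996), none of them past the threshold. For Arpc4, the difference in change between microglia-like and CAM-like cells was −0.78 (SE 0.17, adjusted p 0.00743).

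The comparison of microglia-like cells asks which CC chemokine genes differ when microglia develop without Arpc4. UMIs were summed per mouse over 4199354 to 11685366 UMIs a mouse, and all genes were tested together with edgeR at an adjusted p under 0.05. Of 12728 genes tested, 5859 were called, which is 46.0% (22.9% higher and 23.2% lower in Arpc4dCx3cr1 mice). Of the 8 members, 7 passed the filter on low counts and 6 were called, each of them higher. The call is common here, so the count of members is read beside that 46.0% and beside the sizes of the changes. The median log2 change was 2.17 over the 7 tested members and −0.01 over all genes tested. Without Arpc4dCx3cr1 mouse 1, 6364 genes (49.6%) and 6 members were called.

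**Figure D1:**
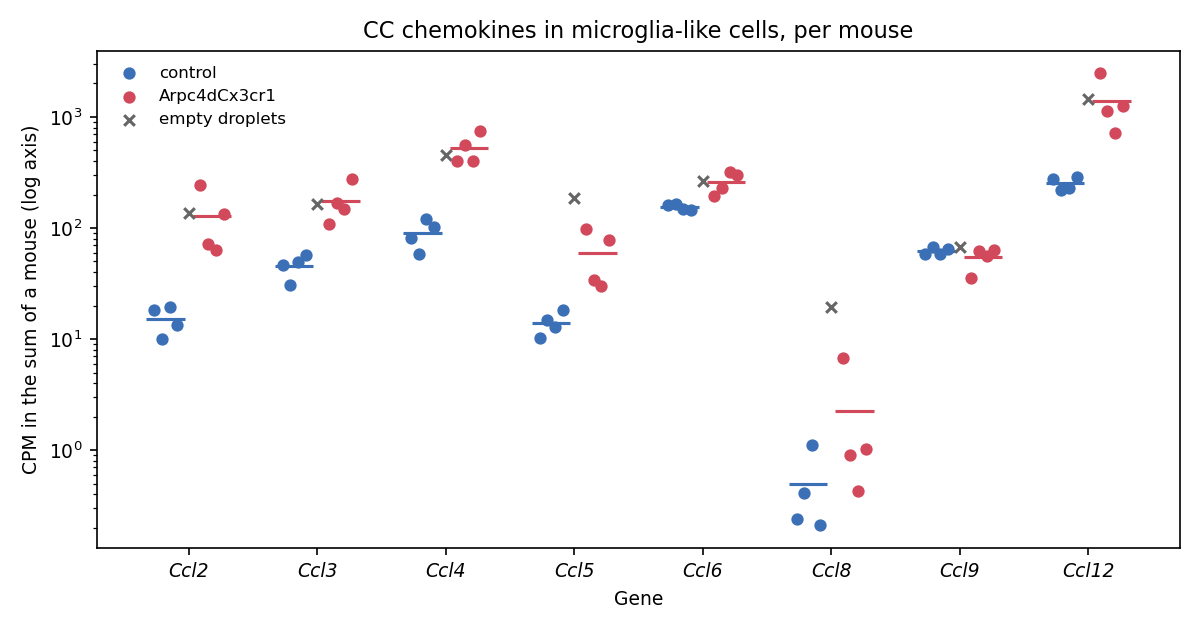
Level of each CC chemokine gene in the microglia-like sum of each mouse, in CPM on a log axis, with 1 point per mouse, a bar at each genotype mean and a cross at the level in empty droplets. Ccl12 lies between 221 and 286 CPM in control mice and between 712 and 2463 CPM in Arpc4dCx3cr1 mice, while Ccl9 lies near 60 CPM in most mice of both genotypes.

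Ccl2 encodes the main monocyte attractant of the CCR2 ligands. Its level in microglia-like cells was 18.1, 10.1, 19.6 and 13.4 CPM in control mice 1 to 4 and 245, 72.4, 63.6 and 133 CPM in Arpc4dCx3cr1 mice 1 to 4. Arpc4dCx3cr1 mice 1 and 4 were the highest, and the lowest Arpc4dCx3cr1 mouse was above the highest control. The mean rose from 15.3 ± 4.35 (SD, n = 4) to 129 ± 83.8 CPM (SD, n = 4), and the log2 fold change was 3.21 (SE 0.44, adjusted p 0.000160). Ccl12, a rodent ligand of CCR2, stood at 274, 221, 228 and 286 CPM in the controls and at 2463, 1141, 712 and 1255 CPM in the Arpc4dCx3cr1 mice. Mouse 1 was again the highest, mouse 3 the lowest of its genotype, and the groups did not overlap. The Ccl12 log2 fold change was 2.57 (SE 0.31, adjusted p 6.71e-05), and 2.15 without Arpc4dCx3cr1 mouse 1. Ccl8, which in mice acts on CCR8, was barely found in microglia-like cells, with 1, 4, 10 and 2 UMIs in the controls and 72, 9, 5 and 12 UMIs in the Arpc4dCx3cr1 mice. Ccl8 did not pass the filter and was not tested, and the 72 UMIs of Arpc4dCx3cr1 mouse 1 came from 33 of its 2185 cells. Of the 5 alternatives that could test Ccl8, 1 called it (no filter on low counts, log2 fold change 2.18, adjusted p 0.0442). Over the 5, the log2 value ranged from −0.47 (all cells) to 2.18 and the adjusted p from 0.0442 to 0.575.

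These genes are neighbours on chromosome 11. In the annotation of build mm10, Ccl2 (ENSMUSG00000035385) spans 82035571 to 82037453, Ccl12 (ENSMUSG00000035352) 82101845 to 82103400 and Ccl8 (ENSMUSG00000009185) 82115185 to 82116799, all on the plus strand within 81.2 kb. The antisense gene Gm17268 overlaps Ccl2 on the opposite strand. Promoter windows from 250 bases before to 50 bases after the start were taken from RefSeq (build GRCm38.p6) and were present for 5 of the 8 members. Ccl2, Ccl4 and Ccl5 were missing. The windows of Ccl12 and Ccl8 are shown because these neighbours differed most in what microglia-like cells held of them. The Ccl12 window is chr11:82101595-82101894 and the Ccl8 window chr11:82114935-82115234, both on the plus strand, with matches to TATAAA (either strand) and to the kB letters in capitals.
Ccl12: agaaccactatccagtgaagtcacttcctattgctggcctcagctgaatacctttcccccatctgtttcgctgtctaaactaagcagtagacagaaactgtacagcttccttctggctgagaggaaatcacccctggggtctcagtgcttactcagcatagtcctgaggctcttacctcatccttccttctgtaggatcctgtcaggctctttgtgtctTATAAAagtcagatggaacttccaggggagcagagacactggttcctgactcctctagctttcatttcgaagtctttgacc
Ccl8: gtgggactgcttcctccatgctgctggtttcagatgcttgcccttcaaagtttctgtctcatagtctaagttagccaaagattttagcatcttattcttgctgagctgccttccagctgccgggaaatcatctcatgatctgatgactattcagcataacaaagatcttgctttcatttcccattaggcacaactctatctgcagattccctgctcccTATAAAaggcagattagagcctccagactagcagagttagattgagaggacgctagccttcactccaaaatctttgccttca
TATAAA begins 31 bases before the start in Ccl12 and 32 bases before it in Ccl8. Of all 32851 promoter windows of this length, 13.6% hold TATAAA on either strand, and 3 of the 5 member windows do (Ccl12, Ccl8 and Ccl9). The kB letters GGGNNNNNCC occur in 50.8% of all windows and in 1 of the 5 (Ccl9). The interferon element GAAANNGAAA occurs in 3.44% of windows and in 0 of the 5, and the AP-1 letters TGANTCA in 7.81% and in 1 of the 5 (Ccl9). Each motif was searched on both strands, and a match only describes the letters of this window.

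Ccl3 and Ccl4 encode closely related attractants of T cells and myeloid cells. Ccl3 stood at 46.2, 30.6, 49.7 and 56.9 CPM in the microglia-like cells of control mice 1 to 4 and at 107, 166, 147 and 276 CPM in the Arpc4dCx3cr1 mice. Arpc4dCx3cr1 mouse 4 was the highest, and even mouse 1, the lowest of its genotype, was above every control. The log2 fold change of Ccl3 was 2.04 (SE 0.28, adjusted p 0.000145). Ccl4 stood at 81.2, 58.8, 121 and 102 CPM in the controls and at 401, 562, 403 and 751 CPM in the Arpc4dCx3cr1 mice. Its order among the Arpc4dCx3cr1 mice followed Ccl3, with mice 4 and 2 highest, unlike that of Ccl2 and Ccl12. The mean of Ccl4 rose from 91.0 ± 27.0 (SD, n = 4) to 529 ± 166 CPM (SD, n = 4), and the log2 fold change was 2.64 (SE 0.25, adjusted p 1.16e-05). Ccl5, a ligand of CCR1 best known from cytotoxic T cells, stood at 10.2, 14.8, 12.7 and 18.2 CPM in the controls and at 98.1, 33.9, 29.9 and 77.4 CPM in the Arpc4dCx3cr1 mice. Mice 1 and 4 were high and mice 2 and 3 lower, still above the controls. The log2 fold change of Ccl5 was 2.17 (SE 0.38, adjusted p 0.000841). In the sums of all cells, which include the T cells, it was 0.81 (adjusted p 0.0109), and over all alternatives the adjusted p of Ccl5 ranged from 5.10e-06 to 0.0109.

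Ccl6 and Ccl9 encode ligands of CCR1. Ccl6 stood at 160, 163, 149 and 147 CPM in the microglia-like cells of the controls and at 192, 228, 319 and 299 CPM in the Arpc4dCx3cr1 mice. Its highest mice were 3 and 4, and mouse 1, the highest for Ccl2, Ccl5 and Ccl12, was the lowest of its genotype for Ccl6. The Ccl6 log2 fold change was 0.86 (SE 0.14, adjusted p 0.000609), the smallest of the 6 called members and the only one of them under 1. Ccl9 stood at 58.1, 66.9, 58.3 and 64.1 CPM in the controls and at 35.6, 62.7, 56.4 and 62.9 CPM in the Arpc4dCx3cr1 mice. Arpc4dCx3cr1 mouse 1 was low, and the other 3 lay within or just under the control range. Its log2 fold change was −0.08 (SE 0.15, adjusted p 0.684), which did not pass, and its sign was positive without Arpc4dCx3cr1 mouse 1 (0.07).

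Ccl5 (ENSMUSG00000035042), Ccl9 (ENSMUSG00000019122), Ccl6 (ENSMUSG00000018927), Ccl3 (ENSMUSG00000000982) and Ccl4 (ENSMUSG00000018930) form a further group of 138.9 kb on chromosome 11, from 83525778 to 83664683. Ccl4 lies on the plus strand and the other 4 on the minus strand. The antisense gene E230016K23Rik overlaps Ccl6 on the opposite strand. The Ccl3 window (chr11:83649329-83649628) and the Ccl9 window (chr11:83578587-83578886), both on the minus strand and written 5′ to 3′, are shown because the former belongs to a called member and the latter to the tested member that was not called. Capitals mark TATAAA (either strand) and kB letters as above.
Ccl3: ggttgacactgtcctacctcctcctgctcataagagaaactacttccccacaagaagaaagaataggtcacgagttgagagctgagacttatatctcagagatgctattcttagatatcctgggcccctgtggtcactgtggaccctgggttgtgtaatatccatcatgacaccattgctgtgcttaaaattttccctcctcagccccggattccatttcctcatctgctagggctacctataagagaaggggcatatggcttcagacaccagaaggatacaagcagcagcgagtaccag
Ccl9: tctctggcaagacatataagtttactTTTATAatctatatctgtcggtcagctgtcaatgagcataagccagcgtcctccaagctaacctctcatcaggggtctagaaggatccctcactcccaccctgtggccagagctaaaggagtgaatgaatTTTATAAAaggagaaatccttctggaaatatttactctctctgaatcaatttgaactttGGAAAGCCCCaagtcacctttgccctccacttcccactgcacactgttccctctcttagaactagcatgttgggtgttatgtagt
The Ccl3 window holds none of the 4 motifs. The Ccl9 window holds TATAAA on 1 strand or the other at 224, 94 and 92 bases before the start, the kB letters as GGAAAGCCCC at 35 bases and the AP-1 letters at 53 bases before it. The member that did not pass in microglia-like cells was therefore the one whose window held the kB letters, and nothing about NF-kB follows from that.

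Other CC ligands and receptors were taken from lists of the family. Of 12 other CC ligands, 4 passed the low-count filter, 0 were called higher and 1 lower, beside the 46.0% of all tested genes called. That gene was Ccl24, a CCR3 ligand, whose mean fell from 7.27 to 2.33 CPM (log2 fold change −1.57, SE 0.26, adjusted p 0.000607). Ccl7, the CCR2 ligand most like Ccl2, stood at 9.76, 1.34, 1.22 and 0.528 CPM in the controls and at 8.56, 2.99, 1.89 and 2.65 CPM in the Arpc4dCx3cr1 mice, with overlapping groups (log2 change 0.79, adjusted p 0.432). Of 14 receptors, 7 were tested, 2 were called higher and 2 lower, near that 46.0%. Ccr2, the receptor of Ccl2 and Ccl12, was scarce, with a mean of 4.45 CPM in controls and 2.57 CPM in Arpc4dCx3cr1 mice (log2 fold change −0.62, adjusted p 0.0370). Ccrl2 rose from a mean of 12.01 to 28.4 CPM (log2 fold change 1.37, adjusted p 2.92e-06) and Ccr9 from 1.13 to 3.27 CPM (log2 fold change 1.54, adjusted p 0.00238). Ccr1, Ccr6 and Ackr4 were tested and not called.

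**Figure D2:**
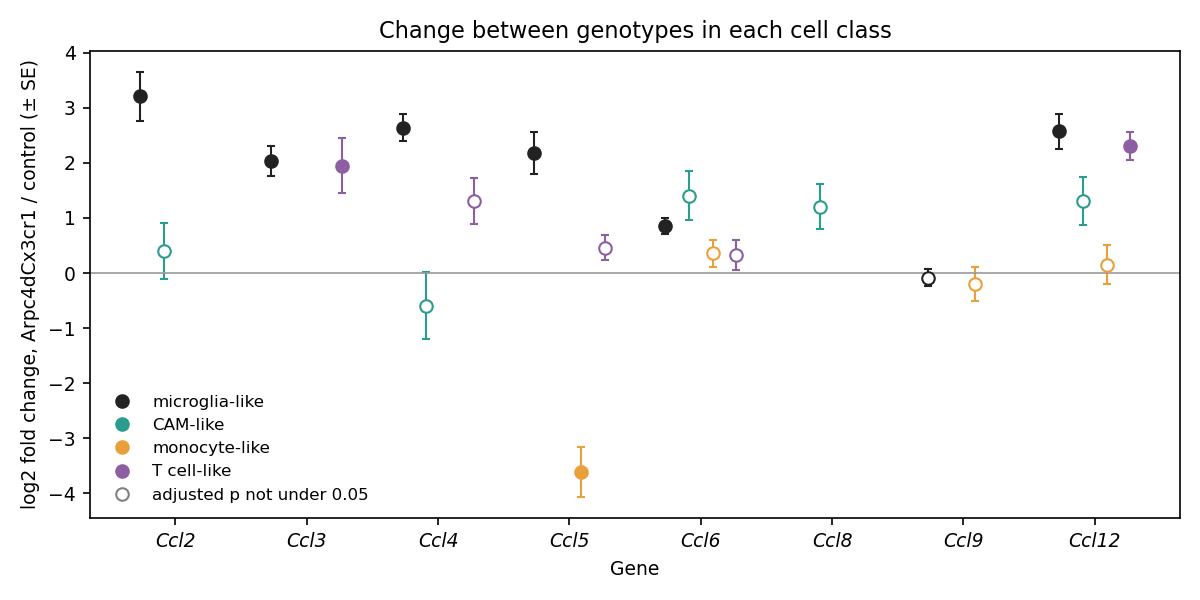
Log2 fold change (Arpc4dCx3cr1 over control) of each CC chemokine gene in each cell class where it was tested, with bars of 1 standard error from the edgeR fit, 4 mice per genotype, and open circles where the adjusted p was not under 0.05. Microglia-like values run from −0.08 for Ccl9 to 3.21 for Ccl2, and monocyte-like Ccl5 lies at −3.61.

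Free RNA was measured in the pool, since all mice shared 1 suspension. The 1769098 droplets with at most 100 UMIs held 6848195 UMIs. Ccl12 reached 1461 CPM in them, Ccl4 456, Ccl6 267, Ccl5 185, Ccl3 163, Ccl2 137, Ccl9 67.8 and Ccl8 19.4 CPM. If 10% of a sum were free RNA, it would bring 146 CPM of Ccl12 and 45.6 CPM of Ccl4, below the control levels. For Ccl2 it would bring 13.7 CPM and for Ccl5 18.5 CPM, which is about what control microglia-like cells held. The 10% is an assumed share. Ccl12 averaged 105 CPM in control T cell-like, 80.4 CPM in control monocyte-like and 13.4 CPM in control B cell-like cells (2 mice), each below the 146 CPM of that share. In Arpc4dCx3cr1 mice it averaged 475 CPM in T cell-like and 97.3 CPM in monocyte-like cells and stood at 192 CPM in the B cell-like cells of 1 mouse. Ccl2 averaged 3.79 CPM in control and 34.8 CPM in Arpc4dCx3cr1 T cell-like cells, and 6.12 and 18.0 CPM in monocyte-like cells, below its 13.7 CPM in controls and above it in Arpc4dCx3cr1 mice. Where these transcripts come from was not tested, and the share in microglia-like cells was not measured. With 10% subtracted, Ccl3, Ccl4, Ccl6 and Ccl12 were called higher as before. The subtraction takes more Ccl5 than any control mouse held and more Ccl2 than control mice 2 and 4 held, so their calls under it follow from its construction and no fold is given.

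The share of cells with at least 1 UMI was compared after thinning every cell to 2000 UMIs, which left out 288 control and 329 Arpc4dCx3cr1 microglia-like cells (median depth before thinning 3835.5 and 4284 UMIs). Ccl12 was found in 24.3 to 30.9% of a control mouse's microglia-like cells and in 42.5 to 69.3% of an Arpc4dCx3cr1 mouse's. Unthinned, the ranges were 39.3 to 46.3% and 61.3 to 81.0%. Ccl2 was found in 1.68 to 2.16% and 6.70 to 22.1%, and Ccl5 in 0.9298 to 1.47% and 3.26 to 5.84%. These shares did not overlap between the genotypes for any of the 3 genes. Ccl6 was found in 22.4 to 25.6% and 27.6 to 36.8%, and Ccl9 in 10.4 to 11.8% and 6.08 to 10.0%. The thinned shares of Ccl6 and Ccl9 did not overlap either, and for Ccl9 every Arpc4dCx3cr1 mouse was below every control. The unthinned shares of Ccl9 overlapped (18.1 to 21.7% and 13.5 to 20.5%). How many of all genes have shares without overlap was not counted. Since 46.0% of all tested genes were called between the genotypes, the lack of overlap only describes each gene. B cells, which are not a known source of Ccl2 or Ccl12, gave a measure of the background without thinning. Ccl12 was found in 3 of 43 control and 11 of 36 Arpc4dCx3cr1 B cell-like cells (6.98 and 30.6%, median depth 2095 and 4523.5 UMIs). Ccl2 was found in 0 of 43, which allows a share of up to 6.98%, and in 4 of 36 (11.1%). The control share of Ccl2 in microglia-like cells was 2.47 to 3.68% unthinned, and 43 cells are too few to compare with it. The Arpc4dCx3cr1 share was 12.6 to 33.5% unthinned, with a low end close to the 11.1% of the B cell-like cells. Beside the share, the UMIs per positive cell also differed, from a mean of 1.85 to 5.24 for Ccl12 and from 2.89 to 5.64 for Ccl4.

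Ccl3 and Ccl4 were examined for presence in the same cell. The share of microglia-like cells with UMIs of both was 1.24, 0.770, 0.804 and 0.991% in control mice 1 to 4 and 5.04, 6.17, 5.41 and 11.0% in Arpc4dCx3cr1 mice 1 to 4. Arpc4dCx3cr1 mouse 4 was far above the others of its genotype, and the groups did not overlap. The means were 0.951 ± 0.216% (SD, n = 4) and 6.90 ± 2.75% (SD, n = 4), a difference of 5.94 percentage points (exact permutation test over mice, two-sided, p 0.0286, the smallest that 4 against 4 mice can give). If the genes were spread over cells independently, 0.254 to 0.397% of control and 1.72 to 4.66% of Arpc4dCx3cr1 cells would hold both. That product alone already separates the genotypes, since each gene was found in more Arpc4dCx3cr1 cells. The p above therefore follows the single shares too and does not test presence in the same cell. The observed share exceeded that product by 3.02 to 3.17 times in controls and 2.35 to 3.19 times in Arpc4dCx3cr1 mice. This ratio has a lower ceiling where the single shares are larger, so it does not compare the association between the genotypes. Among cells with Ccl3, 15.9 to 19.7% also held Ccl4 in controls and 46.5 to 55.8% in Arpc4dCx3cr1 mice. Without thinning the means were 2.28 and 11.7%. In B cell-like cells Ccl3 was found in 0 of 43 control cells (up to 6.98% allowed) and 1 of 36 Arpc4dCx3cr1 cells, and Ccl4 in 5 and 2 cells.

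**Figure D3:**
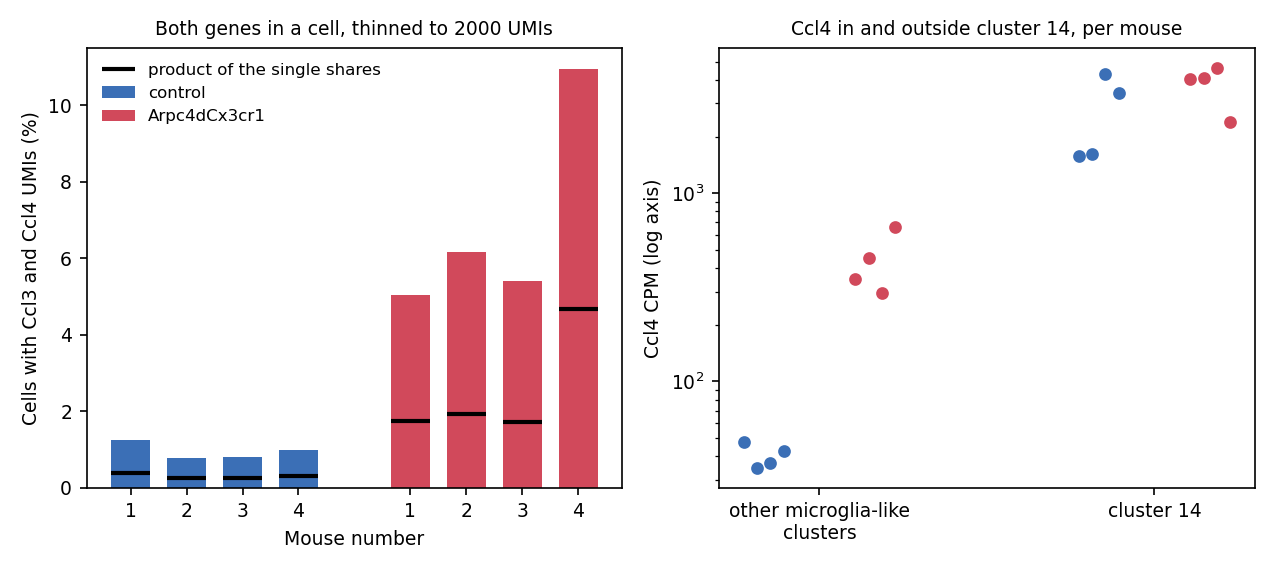
Left, percent of microglia-like cells with UMIs of Ccl3 and of Ccl4 after thinning to 2000 UMIs, 1 bar per mouse, with a black line at the product of the single shares. Right, Ccl4 CPM (log axis) inside and outside cluster 14, 1 point per mouse in the same colours, with 34.8 to 47.7 CPM outside it in controls and 296 to 663 CPM in Arpc4dCx3cr1 mice.

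Correlations across the thinned cells of a mouse (968 to 2329 cells) described which members went together. They come from 1 library and sparse counts, and no test was made. Pairs with Ccl8 could be followed in 1 Arpc4dCx3cr1 mouse only. Of the 21 pairs without Ccl8, Ccl3 with Ccl4 gave the highest Pearson r, with a mean of 0.40 in controls and 0.63 in Arpc4dCx3cr1 mice. Ccl2 with Ccl12, neighbours in the genome, had a mean r of 0.14 and 0.30, and Ccl2 with Ccl4 0.21 and 0.23. Ccl6 with Ccl9 had 0.06 and 0.12. Pairs of Ccl5 with another member of the 7 that could be followed stayed between −0.05 and 0.05 in the means of either genotype. Ccl5 and Ccl12 were both highest in Arpc4dCx3cr1 mice 1 and 4, while their r across cells had a mean of 0.05 in 3 control mice and 0.02 in the Arpc4dCx3cr1 mice.

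Over all 10169 genes found in at least 1% of microglia-like cells, the closest genes to Ccl3 by the mean r of the 8 mice were Ccl4 (0.51), Egr1 (0.28), Atf3 (0.21), Cd83 (0.19) and Ccl2 (0.16). For Ccl4 they were Ccl3, Egr1 (0.30), Atf3 (0.26), Cd83 (0.23) and Ccl2 (0.22). The closest genes to Ccl12 were Isg15 (0.26), Ifit3 (0.24), Cxcl10 (0.23), Ifitm3 (0.22) and Ccl2 (0.22). Ccl2 had partners from either side, namely its antisense neighbour Gm17268 (0.23), Ccl4 (0.22), Cxcl10 (0.22), Ccl12 (0.22) and Egr1 (0.19). For Ccl5 the leading genes were Ifitm3 (0.12), Ifit3 (0.11), H2-D1 (0.10), H2-K1 (0.10) and Ifi27l2a (0.08), at values too low to set them apart. Ccl6 went with Cd9 (0.14), Tyrobp (0.14), Ctsl (0.13), Tmsb4x (0.13) and Lpl (0.13), and Ccl9 with Cd9 (0.09), Cst3 (0.09), Ccl6 (0.09), Cd81 (0.08) and Actb (0.07). Ccl8 was found in too few cells (0.213%) to be compared.

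Levels by cluster showed where in the microglia-like class the members lay. Cluster 14 was led by Ccl4, Ccl3 and Atf3 although no CC chemokine entered the clustering, and it held 113 control and 173 Arpc4dCx3cr1 cells. It made up 1.32 to 1.70% of the microglia-like cells of a control mouse and 0.778 to 2.83% of an Arpc4dCx3cr1 mouse's, so its size overlapped between the genotypes. Inside it, Ccl4 stood at 1581, 1623, 4315 and 3385 CPM in control mice 1 to 4 and at 4030, 4084, 4636 and 2377 CPM in the Arpc4dCx3cr1 mice. These ranges overlapped too. Outside it, Ccl4 stood at 47.7, 34.8, 37.0 and 42.8 CPM in the controls and at 351, 454, 296 and 663 CPM in the Arpc4dCx3cr1 mice, with no overlap. The cluster held 41.8 to 70.2% of a control mouse's Ccl4 UMIs and 13.6 to 28.4% of an Arpc4dCx3cr1 mouse's. Without this cluster, an alternative chosen after seeing the data as the cluster with the highest control Ccl4, the control level falls more by construction. The log2 fold change of Ccl4 was 3.56 (adjusted p 9.69e-07) and that of Ccl3 2.36 (adjusted p 7.98e-05), and over all alternatives the adjusted p ranged from 2.76e-16 to 0.000152 for Ccl4 and from 3.37e-08 to 0.00103 for Ccl3. Without clusters 4 and 14, also chosen after seeing the data, 5758 of 12610 genes and 6 members were called.

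The concentration of UMIs in few cells was read in every mouse. The 1% of microglia-like cells with most Ccl4 held on average 69.4% of the Ccl4 UMIs of a control mouse and 42.4% of an Arpc4dCx3cr1 mouse's. For Ccl2 the shares were 64.5 and 33.4%, and for Ccl12 31.7 and 18.9%. For Ccl6 they were lower and alike, 11.8 and 12.4%. These shares use unthinned counts and are high by construction where few cells hold a UMI. Control mice held 76 to 177 Ccl2 UMIs and Arpc4dCx3cr1 mice 725 to 2637. The shares therefore do not compare the spread over cells between the genotypes. Cluster 10, led by Cxcl10, Ifit3 and Rsad2, had the highest Ccl12 level of any microglia-like cluster, with a mean of 5127 CPM in the 2 control mice with at least 10 such cells and 6670 CPM in the 4 Arpc4dCx3cr1 mice. It made up 0.543% of control and 4.55% of Arpc4dCx3cr1 microglia-like cells on average. Ccl2 was also highest there, with 253 and 621 CPM. In cluster 5, Ccl12 ranged from 1935 to 4818 CPM over 3 Arpc4dCx3cr1 mice, of which mouse 1 gave nearly all of the 1628 cells. Within cluster 0, the largest cluster of Arpc4dCx3cr1 cells, Ccl12 stood at 278 to 416 CPM in the control mice (90 cells in all) and 441 to 758 CPM in the Arpc4dCx3cr1 mice, while Ccl4 overlapped (83.8 to 552 and 211 to 453 CPM). Within cluster 1, the largest of control cells, Ccl12 had a mean of 140.5 CPM in controls and 122 CPM in 2 Arpc4dCx3cr1 mice, and Ccl4 of 21.6 and 11.6 CPM. In clusters 2 and 3, mean Ccl12 was 229 and 204 CPM in controls and 369 and 410 CPM in 2 Arpc4dCx3cr1 mice. The ranges of Ccl12 overlapped in both clusters. Mean Ccl4 there was 39.1 and 35.2 CPM in controls and 124 and 16.6 CPM in Arpc4dCx3cr1 mice. These clusters were drawn from the same cells, so their levels are descriptions.

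**Figure D4:**
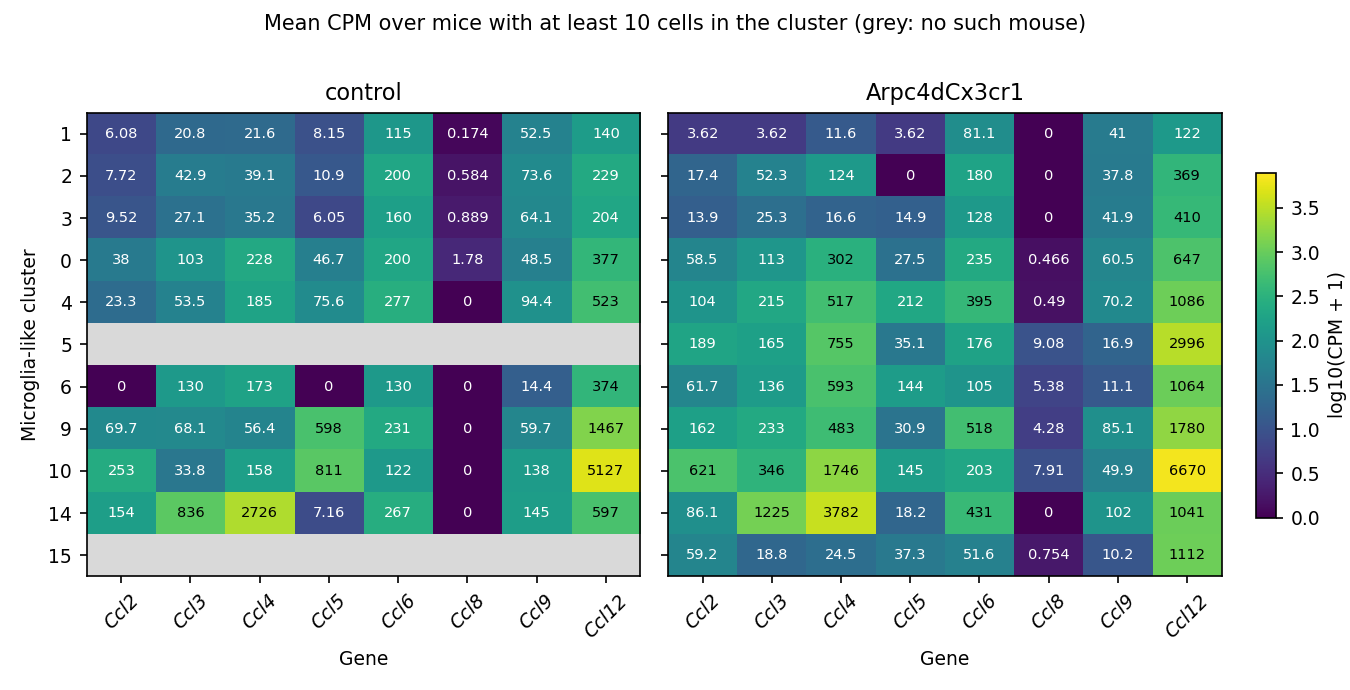
Mean CPM of each CC chemokine gene in each microglia-like cluster, for control mice (left) and Arpc4dCx3cr1 mice (right) with at least 10 cells in the cluster, coloured by log10 of CPM plus 1. Cluster 14 holds the highest Ccl3 and Ccl4 levels and cluster 10 the highest Ccl2 and Ccl12 levels in both genotypes.

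CAM-like cells line the brain's borders and are themselves a source of CC chemokines. The number of cells was small, 47, 63, 113 and 64 in the controls and 44, 22, 31 and 28 in the Arpc4dCx3cr1 mice. Ccl8, nearly absent from microglia-like cells, stood at 170, 257, 234 and 465 CPM in the CAM-like cells of the controls and at 1137, 353, 157 and 858 CPM in the Arpc4dCx3cr1 mice. Arpc4dCx3cr1 mice 1 and 4 were above every control, while mouse 3 was the lowest of all 8, so the groups overlapped. Ccl12 stood at 366, 423, 575 and 1122 CPM in the controls and at 2554, 214, 1346 and 1796 CPM in the Arpc4dCx3cr1 mice, where mouse 2 was the lowest of all and the other 3 were above every control. Ccl6 stood at 204, 281, 127 and 160 CPM in the controls and at 1123, 257, 359 and 125 CPM in the Arpc4dCx3cr1 mice, with overlap. Of 3412 genes tested with edgeR, 31 (0.909%) were called, and 361 had an unadjusted p under 0.05. Of the 5 members tested, 0 were called. The log2 change was 1.21 for Ccl8 (adjusted p 0.192), 1.31 for Ccl12 (adjusted p 0.195) and 1.41 for Ccl6 (adjusted p 0.151), each at an unadjusted p under 0.01 and with 3 of the 4 Arpc4dCx3cr1 mice above the control mean each time.

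The values in this class depended on single mice. Without Arpc4dCx3cr1 mouse 1 the log2 changes were smaller, 0.86 for Ccl12, 0.65 for Ccl8 and 0.41 for Ccl6, and none was called. Ccl12 was called without Arpc4dCx3cr1 mouse 2 (1.67, adjusted p 0.00674), Ccl8 without mouse 3 (1.53, adjusted p 0.0211) and Ccl6 without mouse 4 (1.74, adjusted p 0.00890). Over the alternatives of this class the adjusted p ranged from 0.00674 to 0.538 for Ccl12, from 0.0211 to 0.671 for Ccl8 and from 0.00890 to 0.796 for Ccl6. The number of genes called was 13, 19, 8 and 15 without control mouse 1, 2, 3 or 4, 59 without Arpc4dCx3cr1 mouse 2 and 60 without mouse 4. The microglia markers summed to 7966 to 10108 CPM in the control and 4854 to 8188 CPM in the Arpc4dCx3cr1 CAM-like sums, with none at 0, and their part in these values was not tested. The 9 monocyte markers, led by Ccr2, summed to 186 to 294 CPM in the control CAM-like sums, to 468 CPM in Arpc4dCx3cr1 mouse 1, the highest for Ccl6, and to 17.9 to 59.8 CPM in the other Arpc4dCx3cr1 mice. The part of monocytes was not tested either.

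The difference between the classes was tested itself, in 1 fit of microglia-like and CAM-like sums. Of 11108 genes, 562 (5.06%) changed differently, and of the 8 members 1 did. That member was Ccl4, whose change was larger in microglia-like cells by 3.36 on the log2 scale (SE 0.73, adjusted p 0.00660). Its CAM-like levels, 8.52, 67.2, 46.8 and 185 CPM in the controls and 13.4, 85.5, 74.8 and 35.7 CPM in the Arpc4dCx3cr1 mice, overlapped throughout. The microglia-like and CAM-like sums of a mouse come from the same animal. With the mouse as a block, 722 of 11108 genes (6.50%) and 5 members were called. The members were Ccl4 (3.25), Ccl2 (2.81, adjusted p 1.75e-11), Ccl3 (2.01, adjusted p 0.000150), Ccl12 (1.39, adjusted p 5.62e-06) and Ccl9 (−1.18, adjusted p 0.0446). CAM-like Ccl9 stood at 247 CPM in Arpc4dCx3cr1 mouse 1 and at 17.9 to 42.8 CPM in the other Arpc4dCx3cr1 mice. The controls stood at 26.7 to 55.4 CPM, and the difference was not fitted without that mouse. For Ccl6, Ccl5 and Ccl8 a different change in the classes was not called in either fit.

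**Figure D5:**
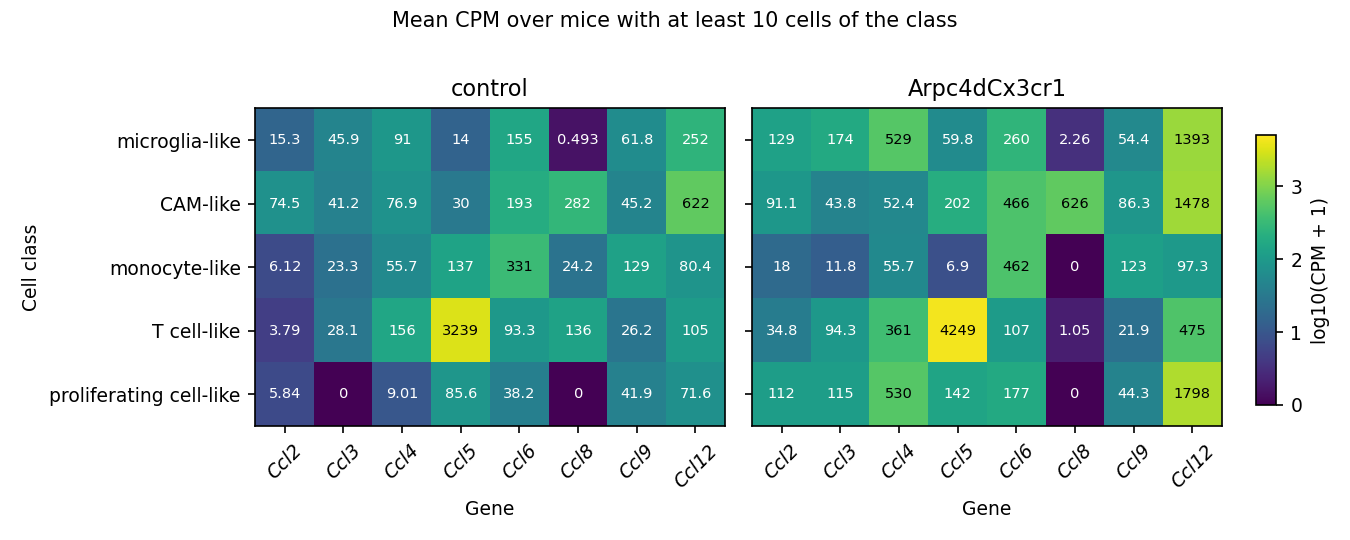
Mean CPM of each CC chemokine gene in each cell class, over control mice (left) and Arpc4dCx3cr1 mice (right) with at least 10 cells of the class, coloured by log10 of CPM plus 1. Ccl8 is highest in CAM-like cells (282 and 626 CPM), Ccl5 in T cell-like cells (3239 and 4249 CPM) and Ccl9 in monocyte-like cells (129 and 123 CPM).

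Monocyte-like cells numbered 25, 34, 36 and 20 in the controls and 114, 21, 83 and 14 in the Arpc4dCx3cr1 mice. Of 3182 genes tested, 199 (6.25%) were called, and 1 of 4 members tested was among them. Ccl5 stood at 81.6, 112, 167 and 189 CPM in the controls and at 17.3, 0, 10.3 and 0 CPM in the Arpc4dCx3cr1 mice. Every Arpc4dCx3cr1 mouse was below every control, the opposite of microglia-like cells. The log2 fold change of Ccl5 was −3.61 (SE 0.45, adjusted p 0.000887). The call rests on few cells, with 4, 3, 1 and 3 control and 4, 0, 4 and 0 Arpc4dCx3cr1 cells holding a Ccl5 UMI, and 112 and 18 UMIs in all. The 8 dendritic cell markers, led by Cd209a with none at 0, summed to 1189 to 1612 CPM in the controls and 203 to 697 CPM in the Arpc4dCx3cr1 mice, and the 9 T cell markers to at most 7.002 CPM, with Trac, Trbc2, Trbc1, Lck and Cd4 at 0. The 8 natural killer cell markers summed to 28.0 CPM in control mouse 4, the highest for Ccl5, and to 0 to 4.06 CPM in the other controls. In the Arpc4dCx3cr1 mice they summed to 0 to 8.46 CPM. The part of dendritic or natural killer cells in the lower Ccl5 was not tested. The number of genes called was 65 (1.65%), 115 (3.71%) and 66 (1.67%) without control mouse 1, 2 or 4. Without Arpc4dCx3cr1 mouse 3 it was 63 (2.05%), and 1 member was called each time.

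Ccl6 and Ccl9 were highest by mean in this class among control cells, and no change was called for them. Ccl6 stood at 332, 297, 423 and 273 CPM in the control monocyte-like cells and at 456, 355, 688 and 348 CPM in the Arpc4dCx3cr1 ones, with overlap (log2 change 0.36, SE 0.24, adjusted p 0.492). Ccl9 averaged 129 ± 51.5 (SD, n = 4) and 123 ± 35.4 CPM (SD, n = 4) (log2 change −0.20, adjusted p 0.833). Ccl12, which differed by 2.57 in microglia-like cells, had a log2 change of 0.15 here (SE 0.36, adjusted p 0.915), with levels of 35.0 to 133 CPM in the controls and 56.2 to 118 CPM in the Arpc4dCx3cr1 mice. Whether that differs from the change in microglia-like cells was not tested.

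T cell-like cells numbered 21, 37, 47 and 28 in the controls and 50, 28, 51 and 47 in the Arpc4dCx3cr1 mice. The 9 T cell markers summed to 2904 to 3438 CPM in the controls and 2591 to 4543 CPM in the Arpc4dCx3cr1 mice. The 8 natural killer cell markers, led by Gzma with none at 0, summed to 1954, 1107, 1715 and 1707 CPM in the controls and to 1551, 2269, 3331 and 2659 CPM in the Arpc4dCx3cr1 mice. Arpc4dCx3cr1 mice 2, 3 and 4 were above every control and mouse 1 was not, and the part of these cells in the Ccl3, Ccl4 and Ccl5 values was not tested. Ccl5, which cytotoxic T cells store and release, stood at 3482, 3873, 2631 and 2970 CPM in the controls and at 2093, 4088, 7643 and 3172 CPM in the Arpc4dCx3cr1 mice. Mouse 3 was the highest and mouse 1 the lowest of all, so the Arpc4dCx3cr1 mice spread around the controls. The log2 change was 0.46 (SE 0.23, adjusted p 0.358). Without Arpc4dCx3cr1 mouse 1 it was 0.69 (adjusted p 0.0198) and without mouse 3 0.01 (adjusted p 0.997, the highest over the alternatives).

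Of 4204 genes tested in T cell-like cells, 163 (3.88%) were called, and 2 of the 5 members tested. Ccl12 stood at 154, 125, 74.4 and 65.4 CPM in the controls and at 656, 336, 361 and 550 CPM in the Arpc4dCx3cr1 mice. The groups did not overlap, and the log2 fold change was 2.30 (SE 0.25, adjusted p 2.09e-06). Ccl3 stood at 17.1, 12.9, 23.5 and 58.9 CPM in the controls and at 37.8, 53.7, 88.1 and 198 CPM in the Arpc4dCx3cr1 mice. Control mouse 4 overlapped the lower Arpc4dCx3cr1 mice, and the log2 fold change was 1.95 (SE 0.50, adjusted p 0.0214). That call was lost without control mouse 1 (1.86, adjusted p 0.0529), control mouse 2 (1.65, adjusted p 0.127), control mouse 3 (1.89, adjusted p 0.0743) or Arpc4dCx3cr1 mouse 4 (1.21, adjusted p 0.224), and the adjusted p of all alternatives ranged from 0.00149 to 0.224. Ccl4 was not called (log2 change 1.31, adjusted p 0.0849), and without Arpc4dCx3cr1 mouse 1 it was (1.65, adjusted p 0.00149, the lowest of a range up to 0.327). Members called numbered 4 without Arpc4dCx3cr1 mouse 1, where 146 of 4320 genes (3.38%) were called. They numbered 1 without control mouse 1, 2 or 3 or Arpc4dCx3cr1 mouse 4, where 2.33 to 3.78% of genes were called. Without control mouse 2, 104 genes were called.

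Microglia transcripts were also found in these cells. The 12 microglia markers, with none at 0, summed to 8481 to 9831 CPM in the control T cell-like sums and 3867 to 6155 CPM in the Arpc4dCx3cr1 ones. In microglia-like sums the same markers stood at 26507 to 26878 and 11194 to 15882 CPM. Ccl12 had a mean of 105 CPM in control T cell-like cells beside 252 CPM in microglia-like cells, and of 475 CPM beside 1393 CPM in Arpc4dCx3cr1 mice. The part of microglia RNA in the Ccl12 and Ccl3 levels of T cell-like cells was not tested.

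The order of the classes differed between members, and is given here for the microglia-like, CAM-like, monocyte-like and T cell-like classes. Proliferating cells, with at least 10 cells in 2 control and 3 Arpc4dCx3cr1 mice, had the highest Arpc4dCx3cr1 mean of Ccl12 (1798 CPM, 652 to 3764) and one of 112 CPM for Ccl2, with ranges that overlapped those of the macrophage classes. By the mean of control mice, Ccl8 was highest in CAM-like cells, and T cell-like cells, next in order, overlapped with them through control mouse 1 alone, where 1 cell held 63 UMIs. Ccl2 was highest in CAM-like cells (74.5 CPM), above microglia-like cells (15.3 CPM) without overlap of the mice. In Arpc4dCx3cr1 mice, microglia-like cells had the highest mean of Ccl2 (129 CPM) but overlapped with CAM-like cells (91.1 CPM). Ccl12 was highest in control CAM-like cells (622 CPM), above microglia-like cells (252 CPM) without overlap, while in Arpc4dCx3cr1 mice the CAM-like (1478 CPM) and microglia-like (1393 CPM) ranges overlapped. Control levels of Ccl3 in microglia-like, CAM-like, T cell-like and monocyte-like cells (45.9, 41.2, 28.1 and 23.3 CPM) overlapped between neighbours in that order. Ccl4 was highest in T cell-like cells of the controls (156 CPM), with a range that overlapped that of microglia-like cells (91.0 CPM). Ccl5 in T cell-like cells lay above every other class in either genotype without overlap.

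The genes of related pathways were counted from lists. Of 17 NF-kB pathway genes, all tested, 8 were called higher and 1 lower in microglia-like cells (median log2 change 0.37, beside −0.01 over all genes tested). The share of all tested genes called, 46.0% (22.9% higher and 23.2% lower), is to be read beside each count here. Nfkbia, an inhibitor that NF-kB itself induces, rose from a mean of 103 to 161 CPM (log2 fold change 0.74, SE 0.14, adjusted p 0.00109). Among the 5 genes of this list with the highest mean level, Nfkb1 (0.37) and Ikbkb (0.42) were also called higher. Rel (−0.18, adjusted p 0.0725) and Cebpb (0.37, adjusted p 0.127) were not called. Of 20 immediate early genes, 19 were tested, with 8 higher and 5 lower (median 0.71). Egr1, among the closest genes to Ccl3 and Ccl4 across cells, was higher, from a mean of 3.55 to 26.8 CPM (log2 fold change 3.02, adjusted p 6.16e-05), whereas Jun fell from 149 to 84.9 CPM (log2 fold change −0.71, adjusted p 0.0219). Of 15 interferon-stimulated genes, 14 were in the tables and tested, and 14 were called higher (median 2.99). Isg15, the closest gene to Ccl12, stood at 29.8, 18.7, 16.1 and 29.2 CPM in the controls and at 166, 110, 92.5 and 132 CPM in the Arpc4dCx3cr1 mice (log2 fold change 2.56, adjusted p 6.87e-06). Its highest and lowest Arpc4dCx3cr1 mice, 1 and 3, were also those of Ccl12. Of 15 other inflammatory mediators, 13 were tested, with 7 higher and 2 lower (median 1.30), and these lists share their mice with the members.

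The 10 brain tissue markers, led by Flt1 with Cldn5 at 0, summed to 34.5 to 45.3 CPM in the control and 98.4 to 167 CPM in the Arpc4dCx3cr1 microglia-like sums, highest in mouse 4, which was also highest for Ccl3 and Ccl4. Of these markers 6 were tested and 3 called higher, and their part in the Ccl3 and Ccl4 values was not tested beyond the result without clusters 4 and 14. The T cell markers summed to at most 4.19 CPM in microglia-like sums, beside a Ccl5 level of 29.9 to 98.1 CPM in the Arpc4dCx3cr1 mice. The 8 natural killer cell markers, led by Klrb1c with none at 0, summed to 0.825 to 1.19 CPM in the controls and 2.42 to 4.55 CPM in the Arpc4dCx3cr1 mice, without overlap. Of these, 1 was tested and called higher (log2 fold change 4.23), and the part of natural killer cells in the Ccl5 level was not tested. The 9 monocyte markers summed to 10.2 to 13.3 CPM in controls and 21.0 to 31.9 CPM in Arpc4dCx3cr1 mice, highest in mouse 1. The 10 granulocyte markers summed to 400 to 420 and 432 to 616 CPM. CAM and B cell markers were lower without overlap (means of 177 and 107 CPM, and of 232 and 116 CPM). The part of these cells in the levels of the members was not tested.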

How the data were processed

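CD45+ brain cells of 4 control and 4 Arpc4dCx3cr1 mice were used. The deposited counts were raw UMIs, in a table for each mouse and a table of every barcode in the pool. Alignment (Cell Ranger, mm10) and the assignment by tag are the work of the authors. The filters asked for 200 genes or more, with mitochondrial UMIs not above 20%. No doublet caller was run beyond the authors' tags, and an alternative drops microglia-like cells over 2.5 times the median UMI count of their mouse. Seurat 5.3.0 in R 4.3.3 clustered the cells (10000 variable genes without 16 CC chemokines, 20 principal components, Louvain 0.8), and clusters were named from marker lists. UMIs were summed per mouse and class (at least 10 cells). Displayed CPM are scaled by the total alone. edgeR 4.0.16 (filterByExpr, TMM factors 0.955 to 1.05, quasi-likelihood test, Benjamini-Hochberg adjustment over all genes of the fit) compared the genotypes, after being tested on simulated data, and DESeq2 1.42.0 was an alternative. Shares of cells and motifs were computed in Python 3.11.15 (scipy 1.17.1, pandas 2.3.3, numpy 2.4.6) and drawn with matplotlib 3.10.9. Limits on shares of 0 use 3 counts and cover counting error only.

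Members and lists were chosen with earlier results of these data known. The named genes are the 8 members, Arpc4, Xist, other CC ligands and receptors past the filter, the 5 genes of each list with the highest mean level and the 5 genes closest to each member found in at least 1% of microglia-like cells. Mouse numbers pair nothing between genotypes. The check of this is given with the replicate block. SoupX was not used, and the proteins and the paper's imaging were not analysed.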

Additional observations from a re-analysis of the deposited data

Results flagged for a closer look

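A mouse far from the other 3 of its group and class was found in 10 of 63 groups checked. The limit used marks about 1 in 20 groups where values are spread normally. Levels near 0, some set by 1 cell, are not spread that way, so 10 of 63 is not read as an excess. In microglia-like cells, Ccl8 stood at 6.70 CPM in Arpc4dCx3cr1 mouse 1 (72 UMIs in 33 cells) and at 0.429 to 1.03 CPM in the others.

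In CAM-like cells, control mouse 4 was high for Ccl2 (196 CPM, others 25.5 to 44.5) and for Ccl3 (105 CPM, others 15.8 to 26.7), with UMIs in 8 of its 64 cells for either gene. Arpc4dCx3cr1 mouse 3 stood at 808 CPM of Ccl5 there, from 108 UMIs in 1 cell, and the others at 0. Arpc4dCx3cr1 mouse 1 stood at 247 CPM of Ccl9, in 13 of 44 cells, and the others at 17.9 to 42.8 CPM. Monocyte markers were also high in the CAM-like sum of this mouse (468 CPM, others 17.9 to 59.8).

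In monocyte-like cells, Ccl4 stood at 173 CPM in control mouse 1 (others 8.13 to 21.0) and at 195 CPM in Arpc4dCx3cr1 mouse 1 (others 7.70 to 11.2), in 8 cells each. Ccl8 stood at 96.9 CPM in control mouse 1, from 19 UMIs in 1 cell. In T cell-like cells, Ccl8 stood at 538 CPM in control mouse 1, from 63 UMIs in 1 cell, and at 4.19 CPM in Arpc4dCx3cr1 mouse 3, from 1 UMI.

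The change of Ccl4 differed between microglia-like and CAM-like cells by 3.36 on the log2 scale, in the fit that tests this difference (adjusted p 0.00660). No cause was tested for any of these.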

How the results depend on the processing

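Of 398 values recomputed under alternatives, 362 kept their side of the threshold or their size, 22 counts moved, 9 values passed the threshold in addition, 5 no longer did and 0 called values changed sign. Of the 362, 5 log2 values called in neither fit changed sign (Ccl9 in microglia-like, Ccl4 in CAM-like and Ccl12 in monocyte-like cells). Of 154 values of members in microglia-like cells, 153 kept their side of the threshold (2 of them, of Ccl9, with another sign), and Ccl6 (0.86) was lost where a log2 fold change over 1 was asked for. That condition called 1566 genes, fewer by construction. The 153 include Ccl2 and Ccl5 with free RNA subtracted, whose calls follow from the construction of that alternative and say nothing on stability. Leaving out 1 mouse gave 5159 to 6364 genes and 6 members in microglia-like cells, 8 to 60 genes and 0 to 1 members in CAM-like cells, 63 to 234 genes in monocyte-like cells, 104 to 173 genes and 1 to 4 members in T cell-like cells, and a difference in the share with Ccl3 and Ccl4 of 4.59 to 6.56 percentage points. The cause was not tested. With the mouse as a block, 722 of 11108 genes (6.50%) and 5 members changed differently between microglia-like and CAM-like cells.

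With the replicate number as a block, 5521 genes and 6 members were called in microglia-like cells and 12 genes in CAM-like cells, with 284 in monocyte-like and 131 in T cell-like cells. The numbers pair nothing. Over 12728 genes, mice of the same number correlated at −0.07, −0.01, −0.04 and −0.01 (control with Arpc4dCx3cr1 mouse 1 to 4), no higher than mice of different numbers (−0.11 to 0.07).

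The alternatives with unnamed clusters (5895 genes), without cluster 14 (5791) and without clusters 4 and 14 (5758) were chosen after seeing the data, and 6 members were called in each. The CAM-like, monocyte-like and T cell-like classes hold 14 to 114 cells a mouse and the B cell-like class 2 to 18, which limits what those comparisons can show. With an assumed 10% of free RNA subtracted all 4 controls of Ccl5 and 2 of Ccl2 are set to 0, so no fold is given for these genes.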
